A study of Mus musculus with 21 samples.

Results

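The voltage-gated sodium channel subunits described here are 7 genes: the pore-forming alpha subunits Scn1a, Scn2a, Scn3a and Scn8a, and the auxiliary beta subunits Scn2b, Scn3b and Scn4b. They were taken from the 16318 genes of the deposited table by gene name, with 6 found under the current symbol and Scn2a found through its older symbol Scn2a1 and its gene ID, and all 7 passed the filter on low counts. Whole brains came from 21 SAMP8 mice, a senescence-accelerated strain to which the mice of both groups belong, with 1 library per mouse. HsTX1[R14A], a scorpion-toxin analog that blocks the potassium channel Kv1.3, was injected under the skin on alternate days, at a dose of 1 mg/kg over 8 weeks, in 9 mice (3 female and 6 male), from 4 to 6 months of age, and 12 mice (6 female and 6 male) received the vehicle, phosphate-buffered saline (PBS), on the same schedule. No untreated mice and no mice of a non-senescent strain are part of this comparison, and the question was how the transcripts of these channels differed between treated and vehicle-treated brains.

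Voltage-gated sodium channels open when a neuron is depolarised and carry the inward current that starts and propagates the action potential. A single alpha subunit forms the pore, senses voltage and inactivates within moments of opening. Beta subunits are small membrane proteins with an immunoglobulin-like domain that adjust gating, bring channels to the cell surface and bind adhesion molecules and the cytoskeleton. In the brain the alpha subunits are known for different places and times: Scn1a for inhibitory interneurons, Scn2a for excitatory neurons and unmyelinated axons, Scn3a for the developing brain, and Scn8a for the axon initial segment and the nodes of Ranvier.

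The alpha subunit genes are alike enough that a read can match more than 1 of them. Between the longest GENCODE transcripts of these genes (GRCm38) the longest identical run was 188 bases between Scn1a and Scn2a and 143 bases between Scn2a and Scn3a, and 6.51% of the 31-base words of Scn1a also stood in Scn2a. Scn8a shared 0.0838% of these words with Scn1a, and no 31-base word was shared between any alpha subunit and any beta subunit or among the 3 beta subunits. The deposited values are estimated counts, which divide reads that match several genes by a model, so the division among Scn1a, Scn2a and Scn3a carries that uncertainty and the values of Scn8a and the beta subunits carry little of it.

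The genes lie in a few clusters. Scn3a, Scn2a and Scn1a are neighbours on chromosome 2 in GRCm38, with 53.1 kb between Scn3a and Scn2a and 503 kb between Scn2a and Scn1a, and Scn2b and Scn4b are 8.32 kb apart on chromosome 9. The alpha transcripts are among the longest in the table, whereas the beta transcripts are of more usual length. The longest annotated transcript measured 8386 bases for Scn1a, 8935 for Scn2a, 9560 for Scn3a and 11436 for Scn8a, against 4656 for Scn2b, 4150 for Scn3b, 4982 for Scn4b and a median of 3282 bases over all genes. Noncoding genes on the opposite strand overlap Scn1a, Scn3a, Scn2b and Scn3b, but no exon of theirs overlaps an exon of these 4 genes.

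Library totals ran from 14917175 to 47613793 estimated counts, and the 7 genes together took 0.0782% to 0.177% of them. Single-gene counts ran from 677 (Scn3a) to 16372 (Scn2b) per mouse, so the spread between mice and not the sampling of reads limited the precision. All 21 libraries matched their labelled sex, and no pair of libraries of 1 group agreed within sampling noise. Defining markers of cerebellar granule and Purkinje cells were near 0 in most of these whole-brain libraries: Pcp2, Gabra6 and Cbln3 summed to more than 10 CPM (counts scaled to the library total) in 3 mice only (36.1 in PBS female 73, 11.8 in PBS female 85 and 257 in HsTX1[R14A] male 74), and the lowest sum was 0.104 CPM. Library names in the deposited table took 2 forms, the more common carried by 10 PBS mice and 5 treated mice and the other by 2 and 4, and the sources used here do not say what the forms stand for.

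HsTX1[R14A] brains held higher levels of 5 of the 7 sodium channel transcripts than PBS brains. Scn8a rose most, 1.66-fold, and Scn3b, Scn2a, Scn2b and Scn3a rose 1.28-, 1.21-, 1.18- and 1.18-fold, whereas the differences of Scn1a (1.09-fold) and Scn4b (1.28-fold) did not pass the test. The test was edgeR's quasi-likelihood test with sex and treatment in the model, with Benjamini-Hochberg adjustment over 16303 genes and a threshold of 0.05. By this rule 31.6% of all genes tested were called in either direction and 15.5% were called higher, so calls were common across the transcriptome. The median log2 fold change was 0.28 over the 7 genes, 0.25 over the 4 alpha subunits and 0.35 over the 3 beta subunits, against -0.01 over all genes. Genes with longest transcripts of 8000 to 12000 bases, as in the alpha subunits, had a median of 0.32, with 43.1% called higher. At 4000 to 6000 bases, as in the beta subunits, the median was 0.11, with 24% called higher. limma/voom called the same count of 5 of 7 (31.9% of all genes), as did DESeq2 (37.7%). The count was 0 with the length slope of each library in the model, where the log2 fold change of Scn8a was 0.01. This slope tells how far a library reads long transcripts above short ones, relative to the average library. The count was also 0 within either library name form and without the 3 mice high in cerebellar markers. In each of these fits 0 of all genes tested were called (0.0%). With a surrogate variable (a component of variation between libraries estimated from all genes) the count was 1, where 6.77% of all genes were called. It was also 1 with length and GC trends removed, where 15.2% were. In whole-brain RNA, more cells of a type and more RNA per cell cannot be told apart.

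**Figure D1:**
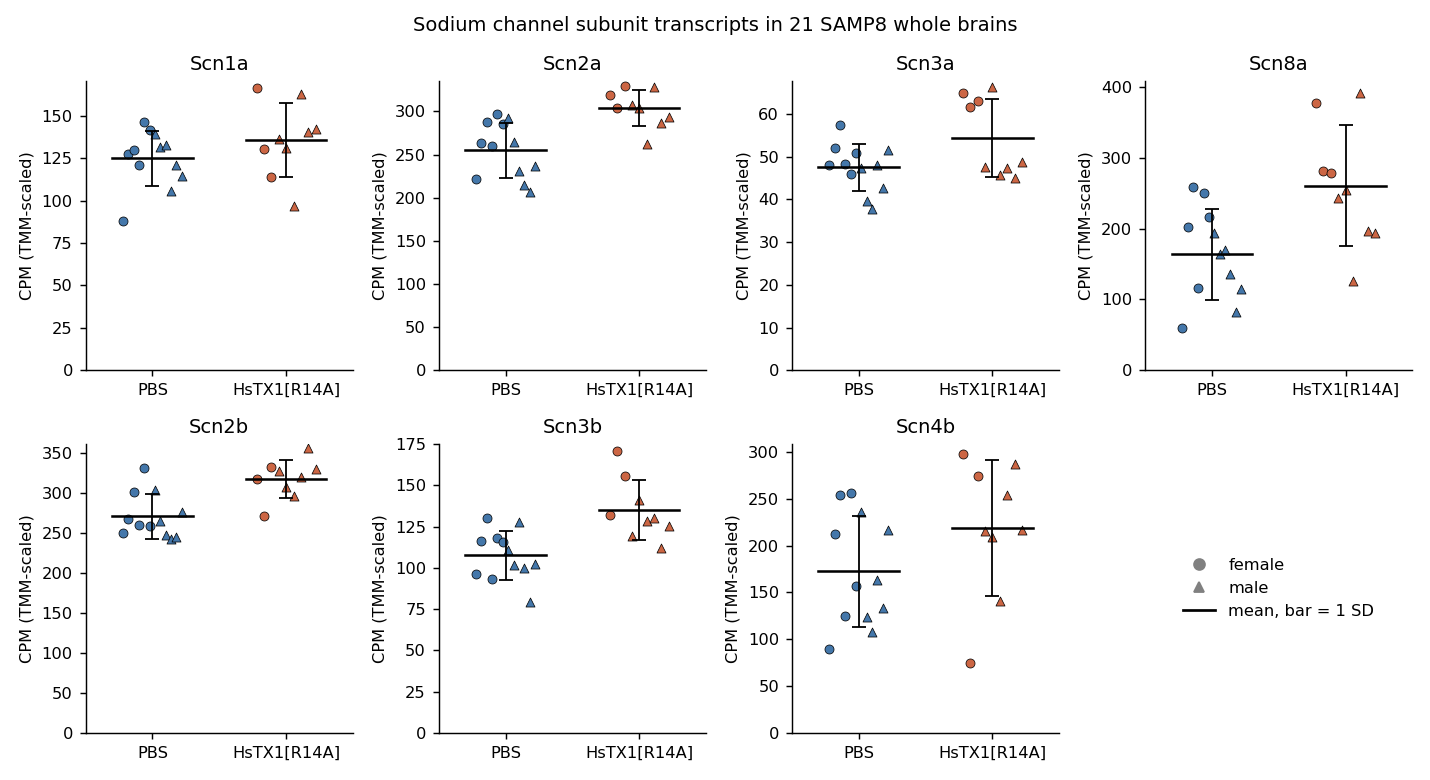
CPM, scaled by TMM, of the 7 genes in each of the 12 PBS and 9 HsTX1[R14A] brains (circles, females; triangles, males; lines and bars, mean and 1 SD; each axis starts at 0). The groups overlapped for every gene, with the least overlap for Scn2a and the widest spread for Scn8a and Scn4b.

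Scn8a encodes Nav1.6, the main channel of the mature axon initial segment and of nodes of Ranvier (ENSMUSG00000023033). In PBS mice it ranged from 59.4 CPM (female 103) to 259 CPM (female 84) with a median of 167 CPM, and in HsTX1[R14A] mice from 126 CPM (male 93) to 392 CPM (male 81) with a median of 254 CPM. The groups overlapped: 4 treated mice lay above the highest PBS mouse, 4 PBS mice lay below the lowest treated mouse, and 8 of 9 treated mice exceeded the PBS median. The log2 fold change was 0.73 ± 0.23 (SE; edgeR, adjusted p = 0.0248). It was 0.77 ± 0.38 in females and 0.71 ± 0.25 in males. The call was lost without HsTX1[R14A] female 98 (0.67, edgeR, adjusted p = 0.0526) or male 81 (0.61, adjusted p = 0.0515), the treated mice with the highest values. Calls over all genes fell there too, from 5145 with all mice to 3005 without female 98 and 3262 without male 81.

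Scn2a encodes Nav1.2, the channel of excitatory neurons and unmyelinated axons (ENSMUSG00000075318). PBS mice ranged from 207 CPM (male 90) to 297 CPM (female 104) with a median of 262 CPM, and HsTX1[R14A] mice from 262 CPM (male 93) to 329 CPM (female 72) with a median of 304 CPM. All 9 treated mice stood above the PBS median and 6 of them above the highest PBS mouse, and 6 PBS mice lay below the lowest treated mouse, the least overlap of the 7 genes. The log2 fold change was 0.28 ± 0.07 (edgeR, adjusted p = 0.0169), and the call held with each of the 21 mice left out in turn, with log2 fold changes of 0.26 to 0.31.

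Scn3a encodes Nav1.3, which is abundant before birth and declines in the mature brain (ENSMUSG00000057182). It was the least abundant of the 7 genes, with 37.8 CPM (male 82) to 57.4 CPM (female 84) and a median of 48.1 CPM in PBS mice, and 45.1 CPM (male 89) to 66.3 CPM (male 88) with a median of 48.8 CPM in HsTX1[R14A] mice. The treated mice fell into a higher and a lower set: the 3 females read 61.6, 63.1 and 64.9 CPM and male 88 read 66.3 CPM, all above the highest PBS mouse, whereas the other 5 treated males read 45.1 to 48.8 CPM, within the PBS range. The log2 fold change over both sexes was 0.23 ± 0.07 (edgeR, adjusted p = 0.0274), from 0.32 ± 0.10 in females and 0.18 ± 0.11 in males. The call was lost without any 1 of these 4 high mice, with adjusted p-values of 0.0507 to 0.0605 in edgeR, and it was lost when sex was left out of the model (adjusted p = 0.0940). Without any 1 of these 4 mice the log2 fold change was 0.175 to 0.224. Calls over all genes fell there too, from 5145 with all mice to between 3005 and 3504.

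Scn1a encodes Nav1.1, the channel whose loss impairs fast-spiking inhibitory interneurons and causes Dravet syndrome in people (ENSMUSG00000064329). PBS mice ranged from 88.0 CPM (female 103) to 146 CPM (female 104) with a median of 129 CPM, and HsTX1[R14A] mice from 97.0 CPM (male 93) to 166 CPM (female 98) with a median of 136 CPM. The ranges lay almost on each other, with 2 treated mice above the highest PBS mouse and 1 PBS mouse below the lowest treated mouse. The log2 difference was 0.12 ± 0.10 (edgeR, adjusted p = 0.324), which was within the spread between mice, and 11119 of the 16303 genes had a smaller p-value.

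Scn3b encodes the beta3 subunit, which associates with alpha subunits without a disulfide bond (ENSMUSG00000049281). It had the smallest p-value of the 7 genes. PBS mice ranged from 79.4 CPM (male 90) to 130 CPM (female 84) with a median of 107 CPM, and HsTX1[R14A] mice from 112 CPM (male 89) to 171 CPM (female 71) with a median of 130 CPM. All 9 treated mice were above the PBS median, 4 were above the highest PBS mouse, and 7 PBS mice were below the lowest treated mouse. The log2 fold change was 0.35 ± 0.08 (edgeR, adjusted p = 0.0153), and it was 0.45 ± 0.14 in females and 0.29 ± 0.10 in males.

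Scn2b encodes the beta2 subunit, which is joined to the alpha subunit by a disulfide bond and is cut by the secretase Bace1 (ENSMUSG00000070304). PBS mice ranged from 243 CPM (male 83) to 331 CPM (female 104) with a median of 262 CPM, and HsTX1[R14A] mice from 271 CPM (female 71) to 356 CPM (male 89) with a median of 320 CPM. Here 8 of 12 PBS mice lay below the lowest treated mouse, but only 2 treated mice lay above the highest PBS mouse. The log2 fold change was 0.23 ± 0.07 (edgeR, adjusted p = 0.0206), with 0.14 ± 0.13 in females and 0.30 ± 0.08 in males.

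Scn4b encodes the beta4 subunit, also disulfide-linked and known for the resurgent sodium current and for high levels in the striatum (ENSMUSG00000046480). PBS mice ranged from 89.3 CPM (female 103) to 256 CPM (female 104) with a median of 160 CPM, and HsTX1[R14A] mice from 74.5 CPM (female 71) to 298 CPM (female 98) with a median of 217 CPM. Thus the lowest and the highest of all 21 mice were both treated females. The log2 difference was 0.36 ± 0.23, as large as that of Scn3b, but did not pass the test (edgeR, adjusted p = 0.221). Without HsTX1[R14A] female 71 it was 0.50 ± 0.19 (adjusted p = 0.0596), also above the threshold.

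Levels of different genes were compared per kilobase of the longest transcript, as RPKM on the TMM-scaled totals. Scn2b was the most abundant in both groups, at 58.1 ± 5.94 RPKM (SD, n = 12) in PBS mice and 68.2 ± 5.21 RPKM (n = 9) in HsTX1[R14A] mice, and Scn3a the least, at 4.97 ± 0.573 and 5.70 ± 0.956 RPKM. In PBS mice the order below Scn2b was Scn4b (34.7 ± 11.9 RPKM), Scn2a (28.6 ± 3.56 RPKM), Scn3b (25.96 ± 3.59 RPKM), Scn1a (14.89 ± 1.95 RPKM) and Scn8a (14.3 ± 5.58 RPKM). Of the neighbours in that order, Scn2b and Scn4b and likewise Scn3b and Scn1a had ranges that did not overlap. Scn4b and Scn2a (Scn4b higher in 7 of 12 mice), and Scn1a and Scn8a (Scn1a higher in 7 of 12), did not differ beyond their spread. In HsTX1[R14A] mice Scn8a, at 22.8 ± 7.48 RPKM, came before Scn1a, at 16.2 ± 2.59 RPKM, and exceeded it in 8 of 9 mice. Of the neighbours there, only Scn1a and Scn3a had ranges apart.

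**Figure D2:**
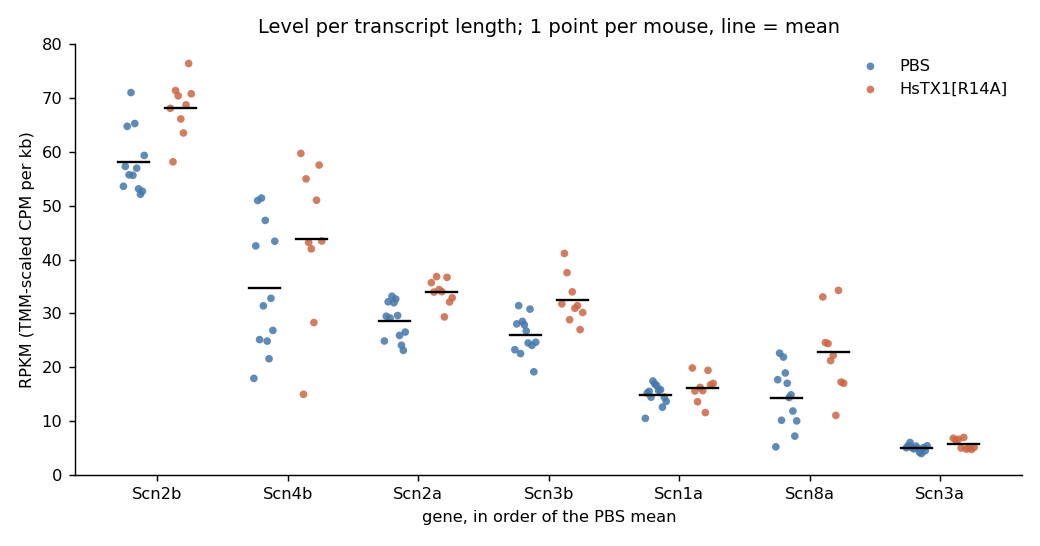
Level per kilobase of longest transcript (RPKM, axis from 0) of the 7 genes in each PBS and HsTX1[R14A] mouse, ordered by the PBS mean; points are mice and lines are means. Scn2b stood highest in both groups and Scn3a lowest, while Scn8a stood below Scn1a on average in PBS mice and above it in HsTX1[R14A] mice.

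Expressed as a share of the summed RPKM of the 4 alpha subunits, Scn2a was the largest component, with 45.9% ± 3.53 (SD, n = 12) in PBS mice and 43.8% ± 4.24 (n = 9) in HsTX1[R14A] mice. Scn8a made up 22.02% ± 5.60 of the alpha pool in PBS mice and 28.3% ± 5.27 in HsTX1[R14A] mice, and Scn1a 23.9% ± 2.23 and 20.6% ± 2.12. The log2 ratio of Scn8a to Scn1a counts was 0.28 ± 0.49 in PBS mice and 0.88 ± 0.36 in HsTX1[R14A] mice, with ranges of -0.57 to 0.99 and 0.38 to 1.29 that overlapped. Among the beta subunits the shares stayed close, with Scn2b at 49.5% ± 4.04 and 47.4% ± 3.16 and Scn3b at 22.1% ± 2.95 and 22.96% ± 5.48. The mean log2 CPM of the alpha subunits less that of the beta subunits was -0.45 ± 0.14 in PBS mice and -0.43 ± 0.25 in HsTX1[R14A] mice, a difference well within the spread.

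Within each sex, no gene of the whole table passed the threshold, so 0 of 7 sodium channel genes were called in females (0.0% of 16209 genes) or in males (0.0% of 16102 genes), and limma/voom also called 0 in either sex. All 7 log2 differences were above 0 in both sexes. At an unadjusted p under 0.05, edgeR listed Scn3a and Scn3b in females, where 20.4% of all genes reached it, and Scn2a, Scn2b, Scn3b and Scn8a in males, where 27.6% did. The treatment by sex interaction was not called for any of the 7 (0.0% of genes; lowest unadjusted p among them 0.282, for Scn2b, with 1.66% of all genes under 0.05), and limma/voom called 0 as well. The sex term itself was called for 0 of 7 (0.0552% of genes, which is 9 genes). The smallest p-values of the sex term were those of Scn3a, lower in males by a log2 of -0.24 ± 0.07 (edgeR, unadjusted p = 0.00373, adjusted p = 0.446), and of Scn3b, lower by -0.18 ± 0.08 (unadjusted p = 0.0404, adjusted p = 0.446). These 2 were the members under an unadjusted p of 0.05, which 10.8% of all genes reached. The largest sex difference was that of Scn8a, at -0.38 ± 0.23 (edgeR, adjusted p = 0.448).

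The 7 genes differed in how closely they followed the length slope of each library. For each library the length slope was computed, that is, the slope of log2 CPM, centred on each gene's mean over mice, against the log2 length of its longest transcript, with the 7 sodium channel genes left out. A library with a slope above 0 reads long transcripts higher than the average library does. Slopes ran from -0.384 to 0.147 in PBS mice (mean -0.0764 ± 0.161, SD, n = 12), of which 3 lay above 0, and from -0.142 to 0.234 in HsTX1[R14A] mice (mean 0.102 ± 0.119, n = 9), of which 8 lay above 0. The slope thus moved with treatment. Over all genes tested, the median log2 fold change was -0.27 for longest transcripts under 2000 bases, 0.11 for 4000 to 6000 bases, the class that holds the 3 beta subunits, and 0.32 for 8000 to 12000 bases, the class that holds the 4 alpha subunits. In these 3 classes 1.67%, 24% and 43.1% of genes were called higher. Of the alpha subunits, Scn8a lay above the median of its class and Scn1a, Scn2a and Scn3a lay below it, whereas all 3 beta subunits lay above the median of theirs.

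Scn8a followed the length slope most closely of the 7 genes in both groups. Its log2 CPM correlated with the slope at r = 0.92 in PBS mice (rho = 0.90, permutation test, p = 7e-05, adjusted p = 0.00049 over 14 relations) and at r = 0.97 in HsTX1[R14A] mice (rho = 0.97, exact permutation test, p = 1.93e-05, adjusted p = 0.00027). PBS female 103, with the lowest slope of all, had the lowest Scn8a level of all, and the 2 treated mice with the highest slopes, female 98 and male 81, had the highest Scn8a levels. Without the 2 mice farthest from the median slope of each group, r was 0.77 in PBS mice and 0.92 in HsTX1[R14A] mice (adjusted p = 0.0551 in both, permutation test), and within the PBS mice of the more common library name it was 0.92.

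The other long alpha transcripts followed it less closely, although Scn3a is the second longest of the 4. For Scn2a r was 0.68 in PBS mice (rho = 0.69, permutation test, adjusted p = 0.0348) and 0.91 in HsTX1[R14A] mice (rho = 0.78, exact permutation test, adjusted p = 0.00375). For Scn1a r was 0.65 in PBS mice (rho = 0.60, permutation test, adjusted p = 0.0444) and 0.66 in HsTX1[R14A] mice (rho = 0.45, exact permutation test, adjusted p = 0.0862). For Scn3a r was 0.41 and 0.68, and neither passed after adjustment (rho = 0.42 and 0.58, permutation tests, adjusted p = 0.225 and 0.0670). Without the 2 mice farthest from the median slope, r fell to 0.41 for Scn2a and 0.35 for Scn1a in PBS mice. It fell to 0.68 for Scn2a in HsTX1[R14A] mice, and none of these passed the threshold. Leaving out those mice also narrows the range of slopes and leaves fewer mice. It therefore cannot show whether the relations rest on them.

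Of the shorter beta transcripts, Scn3b and Scn4b passed the test of the relation with the slope in PBS mice, and none of the 3 passed it in HsTX1[R14A] mice. For Scn3b r was 0.82 in PBS mice (rho = 0.75, permutation test, adjusted p = 0.00375) and 0.48 in HsTX1[R14A] mice (rho = 0.63, exact permutation test, adjusted p = 0.225). For Scn4b r was 0.72 (rho = 0.74, permutation test, adjusted p = 0.0213) and 0.15 (rho = 0.28, exact permutation test, adjusted p = 0.738). For Scn2b r was 0.55 (rho = 0.47, permutation test, adjusted p = 0.0862) and -0.09 (rho = -0.23, exact permutation test, adjusted p = 0.802). The difference between the groups in these correlations was not tested. Without the 2 mice farthest from the median slope, r in PBS mice was 0.75 for Scn3b (adjusted p = 0.0551) and 0.60 for Scn4b (adjusted p = 0.237, permutation tests). The order by transcript length differed between the groups. In PBS mice the correlation of Scn3b, at 4150 bases, was above that of Scn3a, at 9560 bases. In HsTX1[R14A] mice the 4 alpha subunits, with r from 0.66 to 0.97, all stood above the 3 beta subunits, with r from -0.09 to 0.48. Neither order was tested.

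**Figure D3:**
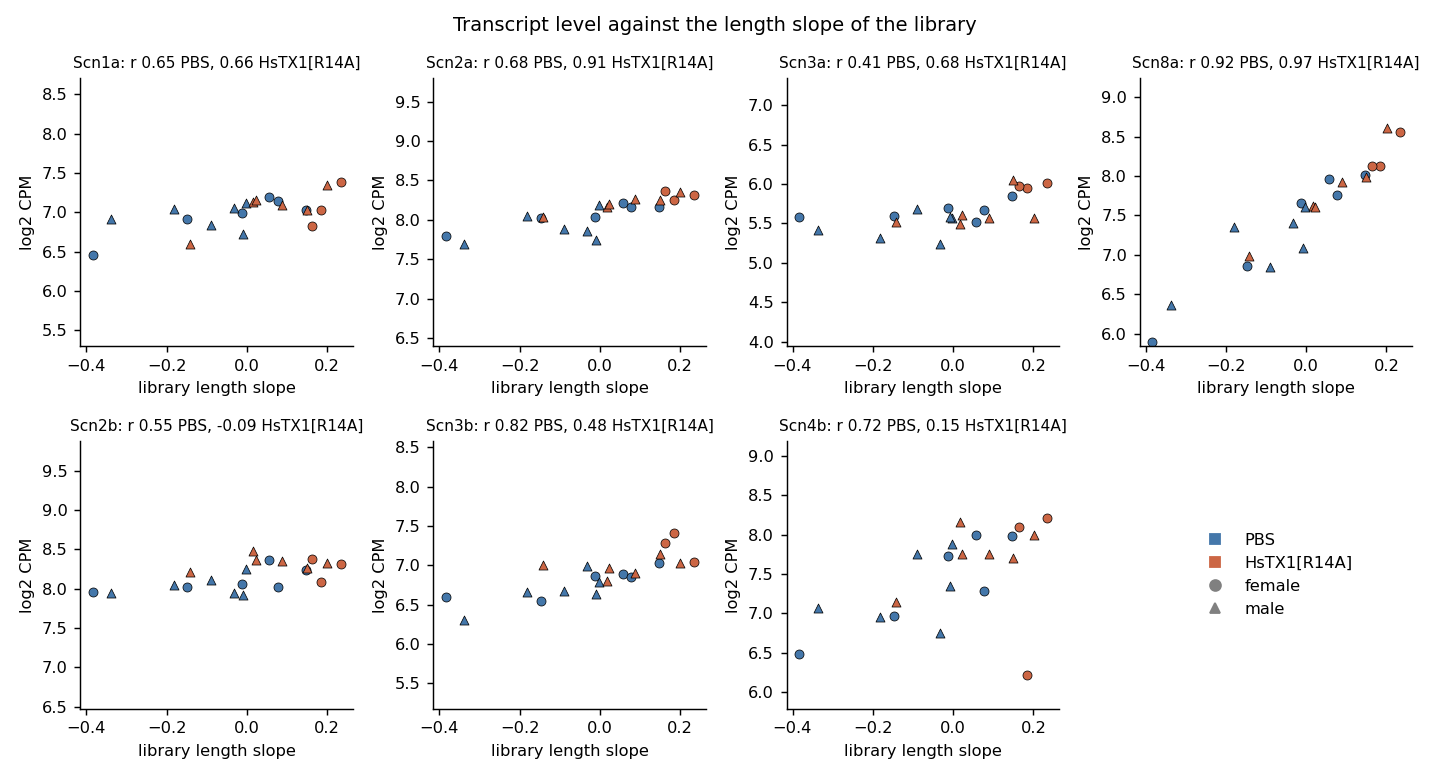
log2 CPM of each gene against the length slope of the library, 1 point per mouse (blue, PBS; orange, HsTX1[R14A]; circles, females; triangles, males), with Pearson's r for each group above the panel; all panels span the same log2 range. Scn8a rises along the whole slope axis in both groups, Scn3a and Scn2b change little, and HsTX1[R14A] female 71 lies far below the other treated mice in Scn4b.

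With the length slope added to the model, 0 of 7 genes were called and so were 0 of all 16303 genes (0.0%), with 11.4% of all genes under an unadjusted p of 0.05. The log2 fold change of Scn8a went from 0.73 to 0.01 ± 0.12 (edgeR, adjusted p = 0.989). Those of Scn2a, Scn3a, Scn2b and Scn3b kept their direction at 0.14 ± 0.06, 0.14 ± 0.08, 0.17 ± 0.07 and 0.20 ± 0.07, with adjusted p-values from 0.343 to 0.519, and Scn2a, Scn2b and Scn3b were under an unadjusted p of 0.05. Scn1a and Scn4b changed sign, to -0.09 ± 0.09 and -0.06 ± 0.24. Because the slope moved with treatment, this model cannot tell apart a treatment difference that follows transcript length from the slope itself.

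Other corrections left Scn8a further from 0 than the length slope did. With length and GC trends of each library taken out first (limma/voom), Scn3b alone was called of the 7, at 0.30 ± 0.07 (adjusted p = 0.0140), where 15.2% of all genes were called, and Scn8a was at 0.27 ± 0.11 (adjusted p = 0.105). With 1 surrogate variable, Scn3b was again the 1 gene called, at 0.26 ± 0.07 (edgeR, adjusted p = 0.0339), where 6.77% of all genes were called. Scn3b was called in 11 of 15 alternative models or sets of mice, against 9 for Scn2a and Scn2b, 8 for Scn3a and Scn8a, and 0 for Scn1a and Scn4b. These counts depend on how many genes each alternative called in all. With the length slope, within either name form and without the mice high in cerebellar markers, 0 of all genes were called. The other alternatives called 1104 to 6145 genes. The residual SD of log2 CPM around the sex and treatment means was 0.58 for Scn8a and fell to 0.22 once the slope was included, whereas that of Scn4b went from 0.58 to 0.51, and that of Scn2b was 0.13 either way.

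**Figure D4:**
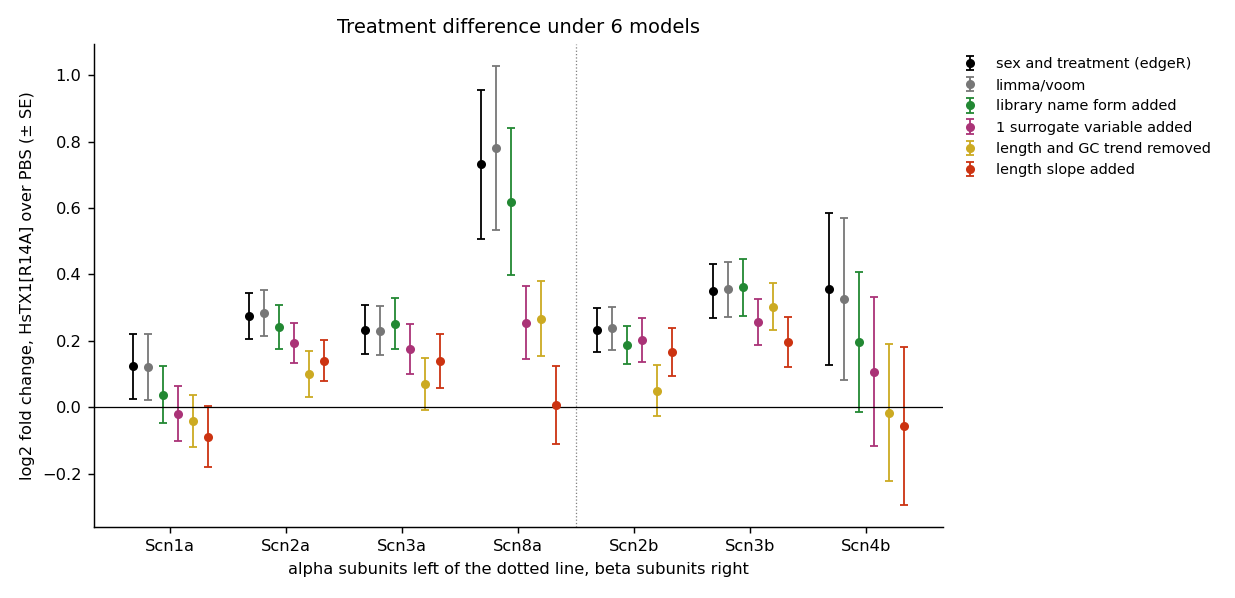
Difference (HsTX1[R14A] over PBS, log2 ± SE) of each gene under 6 models: edgeR with sex and treatment, limma/voom, and models with the library name form, 1 surrogate variable, length and GC trends or the length slope taken into account. Scn8a has the largest value under the first 3 models and lies near 0 with the length slope added, while Scn3b stays above 0 by more than its SE in every model.

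Library name form was unevenly spread over the treatments, and the differences were recomputed within it. With the form as a covariate 4 of 7 genes were called (12.3% of all genes), and Scn8a was not, at 0.62 ± 0.22 (edgeR, adjusted p = 0.0589). Within the more common form, 10 PBS against 5 HsTX1[R14A] mice, 0 of 7 were called and so were 0 of all genes (0.0%), with adjusted p-values of 0.0563 to 0.104 in edgeR for the 5 genes called over all mice, and these 5 were under an unadjusted p of 0.05, as were 35.6% of all genes. Their log2 fold changes there were 0.67 for Scn8a, 0.44 for Scn3b, 0.30 for Scn2a, 0.28 for Scn3a and 0.23 for Scn2b. Within the other form, 2 against 4 mice, all 7 differences were above 0, from 0.06 (Scn2b) to 0.50 (Scn8a), none was called (0.0%) and none was under an unadjusted p of 0.05, where 3.29% of all genes were. Without the 3 mice high in cerebellar markers, 0 of 7 were called and 0 of all genes (0.0%), while the log2 fold changes barely moved (0.70 for Scn8a, 0.34 for Scn3b, 0.27 for Scn2a, 0.24 for Scn3a and 0.21 for Scn2b, with adjusted p-values of 0.0581 to 0.0707 in edgeR). At an unadjusted p under 0.05 these 5 genes were listed there too, as were 37.7% of all genes.

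Members also varied together across mice once sex and treatment means were removed. Over 21 mice, the pairs with the highest residual correlation were Scn2b and Scn4b (r = 0.82), the neighbours on chromosome 9, followed by Scn1a and Scn8a (r = 0.81) and Scn2a and Scn8a (r = 0.81). The median over the 21 pairs was 0.44 and the lowest was -0.03, for Scn1a and Scn3a. With the length slope also removed the median pair was at 0.10, Scn1a and Scn8a were at 0.70 and Scn2b and Scn4b at 0.79, while Scn4b and Scn3b were at -0.53. These values describe libraries that also differ in depth and length slope, and carry no test.

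The genes most like each member across mice were sought among 13295 genes whose mean log2 CPM reached 1. For Scn8a they were Aak1 (r = 0.98), Sort1 (r = 0.98) and D430041D05Rik (r = 0.98), with longest transcripts of 19341, 6836 and 13015 bases, and after removal of the slope Osbp2, Sorl1 and Mtus2 (r = 0.90, 0.90 and 0.89). For Scn4b they were Strn (r = 0.97), Actn2 (r = 0.95) and Pde10a (r = 0.95), and without the slope they included Pde1b (r = 0.96) and Strn (r = 0.95). For Scn1a they were Prickle1, Plcxd2 and Sema7a (r = 0.92 each), and without the slope they included Prickle1 and Cnot11 (r = 0.86 and 0.85). For Scn2a they were Cdh10, Syt11 and Nuak1 (r = 0.90, 0.88 and 0.88), and Jakmip2, Rab35 and Lrfn5 without it (r = 0.86, 0.82 and 0.81). For Scn3a they were Csmd3, Ankrd6 and Lrrc9 (r = 0.82, 0.82 and 0.78), and Zmym3, Traip and Ankrd6 without it (r = 0.84, 0.79 and 0.79). Scn2b was nearest to Kcns2, Nrde2 and Cacna2d3 (r = 0.85, 0.83 and 0.82), and to Cacna2d3, Snw1 and Trmt61a without the slope (r = 0.85, 0.84 and 0.84). Scn3b was nearest to Arhgef28, Nt5dc3 and Lrrtm1 (r = 0.90, 0.90 and 0.87), and to Nt5dc3, Arhgef28 and Pkp2 without it (r = 0.87, 0.84 and 0.83). All these are correlations of residuals over 21 mice, given as a description.

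Cell type markers were summed per mouse and set against the members that mark those cells. Scn4b and the sum of 8 markers of striatal projection neurons had r = 0.91 in HsTX1[R14A] mice (rho = 0.73, exact permutation test, adjusted p = 0.0564 over 10 relations) and r = 0.52 in PBS mice (rho = 0.55, permutation test, adjusted p = 0.209). Treated female 71, the lowest in Scn4b, also had the lowest striatal sum, 447 CPM against 1382 to 1907 CPM in the other 8 treated mice. Without the 2 mice farthest from the median sum r was 0.60 (rho = 0.64, exact permutation test of r, adjusted p = 0.528). Leaving them out also narrows the range of sums and leaves fewer mice, so it cannot show whether the relation rests on them. None of the 8 striatal markers was called between treatments. The relations of Scn4b with cerebellar markers, Scn1a with parvalbumin interneuron markers, Scn3a with markers of oligodendrocyte precursors and Scn8a with neuronal markers were all above the threshold after adjustment, with r from -0.44 to 0.61 (permutation tests, lowest adjusted p = 0.209). In PBS mice Calb1 averaged 179 CPM against a median cerebellar sum of 200 CPM, while Pcp2 averaged 0.84 CPM. Gad1 and Gad2 averaged 371 and 288 CPM there against a median parvalbumin interneuron sum of 932 CPM, and Pvalb 72.6 CPM. The cerebellar and parvalbumin interneuron sums may therefore not follow the cells they are named for. Their relations with Scn4b and Scn1a cannot show whether these genes follow those cells. Over the marker lists, 2 of 7 neuronal markers (Syt1 and Eno2) and 2 of 6 parvalbumin interneuron markers (Kcnc1 and Syt2) were called higher, as were 2 of 6 markers of oligodendrocyte precursors (Cspg4 and Gpr17), while 3 of 6 oligodendrocyte markers (Mbp, Mog and Mobp), 2 of 6 microglial markers (P2ry12 and Aif1) and 2 of 6 astrocyte markers (Aqp4 and Gfap) were called lower. Over all genes 15.5% were called higher and 16.1% lower. Some uncalled genes of these lists went the other way. Among parvalbumin interneuron markers these were Pvalb (log2 difference -0.48 ± 0.22, edgeR, adjusted p = 0.0891) and Tac1 (-0.18), and among neuronal markers Snap25 (-0.12) and Stmn2 (-0.19). Mag (0.08), Csf1r (0.28), Slc1a2 (0.32) and Aldh1l1 (0.15) lay above 0 in the lists with calls lower. With the length slope in the model Kcnc1 and Syt2 were at 0.10 and 0.26. None of 7 cerebellar and 5 choroid plexus markers was called. Summed neuronal markers ran from 5363 to 7758 CPM with PBS and from 6053 to 8787 CPM with HsTX1[R14A], and summed oligodendrocyte markers from 4277 to 6608 CPM and from 3243 to 4783 CPM. The part of these shifts in the sodium channel differences was not tested.

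Genes that work with sodium channels were followed as 5 lists of 35 genes, of which 32 were tested. Of these, 16 were called higher and 4 lower, against 15.5% of all genes called higher and 16.1% called lower, with a median log2 fold change of 0.14. Among scaffolds of the axon initial segment and the node of Ranvier, where ankyrin G and spectrins hold sodium channels in place, all 8 were called higher, with a median of 0.55, and limma/voom called 7 of them. The spectrin Sptan1 rose from 398 ± 176 CPM (SD, n = 12) in PBS mice to 678 ± 191 CPM (n = 9), a log2 fold change of 0.82 ± 0.24 (edgeR, adjusted p = 0.0217), and beta4 spectrin Sptbn4 by 0.73 ± 0.22 (adjusted p = 0.0252). The adhesion molecule Nrcam rose by 0.43 ± 0.12 (adjusted p = 0.0210). The longest transcripts of the 8 scaffolds ran from 3252 bases (Trim46, a microtubule-associated protein of the initial segment) to 9963 bases (Ank3, ankyrin G). With the length slope in the model the list's median was -0.02 and none of the 8 was called, nor was any other gene of the table.

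Of the 5 other sodium channel genes tested, 2 were called higher and 0 lower, by the same rule. The sodium leak channel Nalcn rose from 89.97 ± 12.8 CPM with PBS to 103 ± 13.5 CPM with HsTX1[R14A], a log2 fold change of 0.22 ± 0.08 (edgeR, adjusted p = 0.0495). Scn7a and Scn9a were not called, with log2 differences of -0.10 and 0.08, and Scn4a, Scn10a and Scn11a were not analysed here. Of the 4 fibroblast growth factor homologous factors, which bind the tail of the alpha subunit, Fgf11 rose by 0.51 ± 0.12 (adjusted p = 0.0161), Fgf12 fell by 0.27 ± 0.08 on the log2 scale (adjusted p = 0.0242), and Fgf13, at -0.06 ± 0.10, and Fgf14 were not called. Among 8 genes of channel turnover and modulation, the ubiquitin ligases Nedd4 (0.32 ± 0.10, adjusted p = 0.0279) and Nedd4l (0.43 ± 0.14, adjusted p = 0.0286) and the secretase Bace1 (0.26 ± 0.08, adjusted p = 0.0213) rose, and the calmodulin gene Calm2 fell by 0.34 on the log2 scale. Of 7 regulators of sodium channel transcripts, the splicing factors Nova2 (1.08 ± 0.32, adjusted p = 0.0229) and Rbfox2 (0.36 ± 0.11, adjusted p = 0.0231) rose, and the translational repressor Pum2 fell by 0.28 ± 0.08 (adjusted p = 0.0223, all edgeR). With the length slope in the model none of the 32 was called, nor was any other gene of the table.

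**Figure D5:**
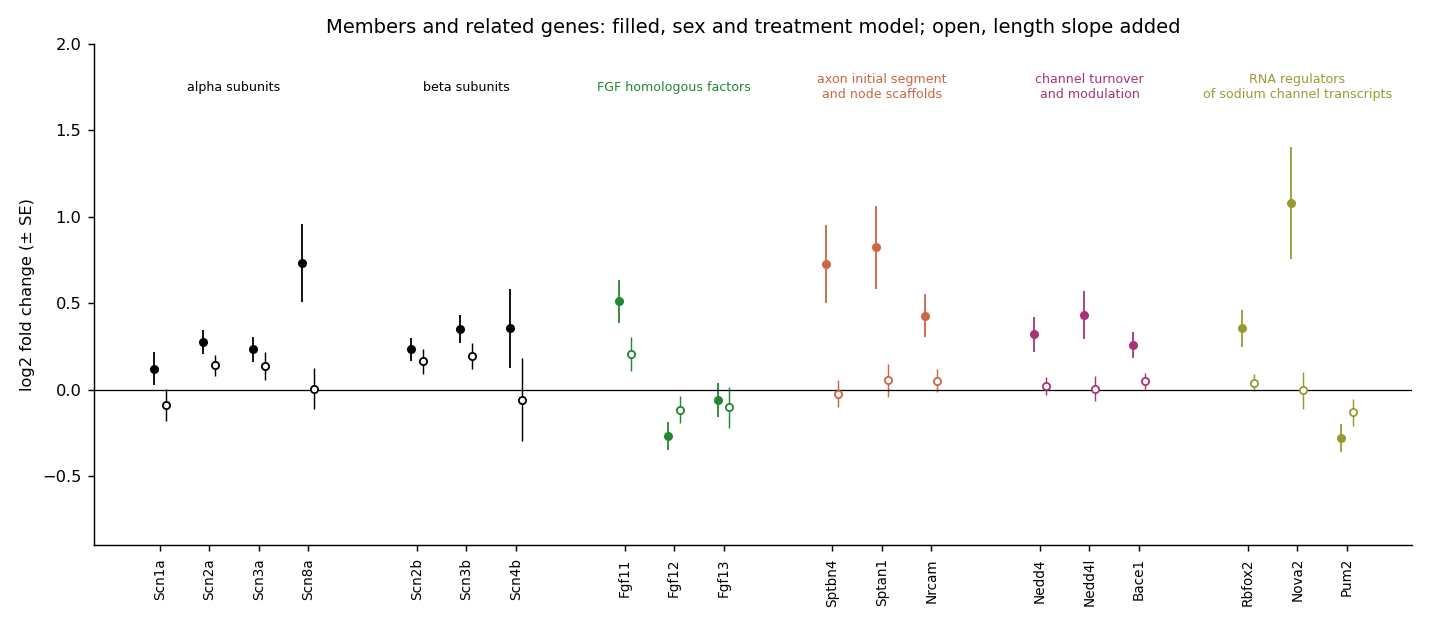
Difference (HsTX1[R14A] over PBS, log2 ± SE) for the 7 sodium channel genes (black) and for the 3 genes with the smallest p-values in each of 4 related lists, with filled points for the model of sex and treatment and open points for the same model with the length slope added. The 3 scaffold genes have filled points above 0 and open points near 0, and Scn8a shows the same shift.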

How the data were processed

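Per the labels and the study's methods, the authors ran nf-core/rnaseq 3.2, with STAR against GRCm38 and Salmon, and deposited the estimated counts (expected counts) of 16318 genes without normalization. How these genes were selected is not given in the sources used here, and the labels and the methods name different library kits. Estimated counts of the 21 mice were rounded; 53 other per-sample columns (37 CPM and 16 counts) and the authors' fold change and p-value columns were not used. Libraries held 14917175 to 47613793 counts, with group medians of 25193122.5 (PBS) and 24465565 (HsTX1[R14A]). After filterByExpr, 16303 genes were tested with edgeR 4.0.16 (R 4.3.3, TMM scaling) on sex and treatment. The SE is the size of the log2 fold change over the square root of the F statistic. Log2 CPM carries a prior count of 2. RPKM is TMM-scaled CPM per kilobase of the longest GENCODE transcript. Permutation tests were two-sided (100000 resamples for 12 mice, all orders for 9).

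Alternatives were limma 3.58.1 with voom, DESeq2 1.42.0, RLE scaling, no filter, a minimum of 10 counts per mouse, sex left out, name form, 1 surrogate variable (sva 3.50.0), the length slope, loess removal of length and GC trends (span 0.5), quality weights, single name forms and leaving out single mice. Leaving out mice high in cerebellar markers, or the 2 with the most negative slope, was an addition made with the data in view. Genes named are the 7 members, the 3 smallest p-values in each related list, and the 3 nearest genes of each member, before and after removal of the slope; some of these are not reported here. Other genes in the lists were named where a call is described or where they went against the calls, after their values were seen. Members and lists were chosen with earlier results of these data known. On data simulated from these libraries for the treatment comparison, over 16298 genes, edgeR recovered 91 of 100 genes changed 2-fold and 68 of 100 changed 1.5-fold, with 8 false calls. The simulated counts held no length slope and no variation shared between genes, so these figures do not cover error from either.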

Additional observations from a re-analysis of the deposited data

Results flagged for a closer look

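Scn3a in HsTX1[R14A] male 88 stood apart from the other males of its group: it read 66.3 CPM, whereas the other 5 treated males read 45.1 to 48.8 CPM, and its gap to the nearest of them was 0.826 of the range of the 6. Dixon's test at the 95% level was applied to 28 sets of 4 to 10 mice of 1 treatment and sex or 1 treatment, and chance marks about 1 in 20 of them. Without this mouse the log2 fold change of Scn3a was 0.175 ± 0.065 (edgeR, adjusted p = 0.0584), no longer past the threshold. Calls over all genes fell in that fit from 5145 to 3121.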

How the results depend on the processing

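No paired analysis was possible because each mouse number in the labels belongs to 1 mouse and is not shared between treatments. The count of 5 members called higher was kept under limma/voom, DESeq2, RLE scaling, both count filters, quality weights and without the 2 mice with the most negative slope. It was 0 with the length slope, in either name form alone and without the 3 mice high in cerebellar markers, fits in which 0 of all genes were called. It was 1 with a surrogate variable (6.77% of all genes called) or with length and GC trends removed (15.2%). With each mouse left out in turn it was 3 to 5, the lowest without HsTX1[R14A] female 98. Calls over all genes moved too, from 5145 of 16303 with all mice to 3005 of 16305 without female 98. Over all mice left out in turn they ran from 2290 to 6618 genes. In these fits the log2 fold change of Scn3a was 0.18 to 0.26 and that of Scn8a 0.61 to 0.81. The causes were not tested beyond what each alternative changes; subsets hold fewer mice.

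Log2 fold changes that left the threshold or changed sign were as follows. With the length slope, Scn1a was at -0.089, Scn2a 0.14, Scn3a 0.14, Scn8a 0.0061, Scn2b 0.17, Scn3b 0.20 and Scn4b -0.056. With 1 surrogate variable, Scn1a was at -0.019, Scn2a 0.19, Scn3a 0.18, Scn8a 0.25 and Scn2b 0.20. With length and GC trends removed, Scn1a was at -0.042, Scn2a 0.10, Scn3a 0.070, Scn8a 0.27, Scn2b 0.050 and Scn4b -0.017. In the more common name form, Scn2a was at 0.30, Scn3a 0.28, Scn8a 0.67, Scn2b 0.23 and Scn3b 0.44, and in the other, 0.077, 0.19, 0.50, 0.062 and 0.15. Without the mice high in cerebellar markers the same 5 were at 0.27, 0.24, 0.70, 0.21 and 0.34. The name form as covariate gave 0.62 for Scn8a, and no sex term gave 0.20 for Scn3a. In females alone the log2 difference ran from -0.041 to 0.24 for Scn1a and from -0.064 to 0.65 for Scn4b with a mouse left out, both lowest without HsTX1[R14A] female 98.

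The log2 difference of males over females changed sign with the length slope for Scn1a (0.090), Scn8a (0.036), Scn2b (0.018) and Scn4b (0.17), and under limma/voom for Scn4b (0.026); none was called. With the slope, 0 related genes and 0 of all genes were called, and Scn7a (0.025), Sptbn4 (-0.022) and Nova2 (-0.0024) changed sign. Without the 2 mice farthest from the median, r with the slope in PBS mice was 0.35 (Scn1a), 0.41 (Scn2a), 0.77 (Scn8a), 0.75 (Scn3b) and 0.60 (Scn4b), and in HsTX1[R14A] mice 0.68 (Scn2a) and 0.92 (Scn8a), none past the threshold after adjustment. Within the more common name form, r in PBS mice was 0.60 (Scn1a), 0.65 (Scn2a) and 0.70 (Scn4b), with adjusted p from 0.0599 to 0.0882 (permutation tests). Correlations with markers that changed sign without the 2 mice farthest from the median, and were not past the threshold, were Scn4b with cerebellar markers (0.015) and Scn1a with parvalbumin interneuron markers (0.17) in PBS mice, and Scn1a with parvalbumin interneuron markers (-0.0058) and Scn8a with neuronal markers (-0.12) in HsTX1[R14A] mice. With summed exon length, Scn2a and Scn3b exchanged places 3 and 4 in HsTX1[R14A] mice.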
